A study of Mus musculus with 2 samples.

Results

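The lipid-associated macrophage programme was followed through single nuclei of mouse mammary tumours by 10 of its genes: Gpnmb, Spp1, Trem2, Cd9, Lgals3, Fabp5, Lpl, Plin2, Pdpn and Hilpda. They were taken by gene symbol, and all 10 were found among the 32285 genes measured. The values are counts of unique molecular identifiers (UMIs), each a distinct captured RNA molecule, from the 10x Genomics 3' v3 assay on nuclei. The labels give 2 samples of nuclei. One genotype is control-PyMT and the other MYC-PyMT, with 1 sample each. The MYC-PyMT genotype adds S100a8-cre and Rosa26-LSL-MYC, a MYC transgene that the recombinase switches on. Both were backcrossed to B6 and carry PyMT, the polyoma middle T oncogene that drives mammary tumours. S100a8-cre is active in the neutrophil lineage. Mice of both genotypes were irradiated at 7 weeks of age and received 3000000 marrow cells of Fcgr1-cre mice heterozygous for a cre-dependent H2B-mCherry allele, which marks nuclei with a history of Fcgr1 expression. The label of this marrow names no MYC allele. A low protein diet began 2 weeks later in both genotypes and lasted 6 weeks. Tumour-associated macrophages were sorted by surface markers, and their mCherry positive, CD11b negative nuclei were sorted again.

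Lipid-associated macrophages are macrophages of fat tissue, atherosclerotic plaques and tumours that take up lipid and store it in droplets. Trem2, a receptor for lipids and cell debris, is needed for the programme in several tissues. The programme joins surface proteins (Gpnmb, Trem2, Cd9, Pdpn), secreted proteins (Spp1, Lgals3, Lpl) and lipid handling inside the cell (Fabp5, Plin2, Hilpda). Several of these genes are also used by other cells, among them mammary epithelium.

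The barcodes of the matrix came from 2 wells, and no label ties a well to a genotype, so the matrix is 1 pooled sample and no genotype was compared. With 1 pooled sample there is no replicate: no p-value was computed, and every interval below is an exact 95% interval for counting error only. After filters 1809 nuclei with 7341041 UMIs remained, 1377 in well 1 and 432 in well 2. Median depth was 2493 UMIs per nucleus in well 1 and 2876 in well 2. The wells shared 9 barcodes, whose copies in well 2 held 336 to 560 UMIs against 56453 to 103328 in well 1, and the copies in well 2 were left out. Marker genes that include no member placed 1120 nuclei as macrophage (785 in well 1 and 335 in well 2) and 246 as epithelial (228 and 18). A further 291 nuclei with a high share of ribosomal protein transcripts were kept apart as cytoplasm-rich, and 152 had too few markers to be placed. The label of all nuclei is tumour-associated macrophages, and the markers went against it in the epithelial nuclei. The epithelial nuclei carried 4711 CPM (UMIs of the named genes per 1000000 UMIs of the group) of epithelial markers and 382 CPM of macrophage markers, and the macrophage nuclei carried 198 and 5194 CPM.

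All 10 genes were matched to the GENCODE vM21 annotation of GRCm38 by gene identifier. Gpnmb (ENSMUSG00000029816) spans chr6:49036546-49070929 on the plus strand, and Hilpda lies on the same chromosome at chr6:29272488-29275446, plus strand. Cd9 is the third member there, at chr6:125460266-125494791, minus strand. Plin2 (chr4:86648386-86670060) and Pdpn (chr4:143267431-143299564) are both on the minus strand of chromosome 4. Spp1 lies at chr5:104435118-104441050, Trem2 at chr17:48346401-48354147, Lgals3 at chr14:47367751-47386160, Fabp5 at chr3:10012548-10016607 and Lpl at chr8:68880491-68907448, all on the plus strand. Annotated exons fill from 5.65% of the gene (Pdpn) to 87.9% (Fabp5). Reads of nuclei can be largely intronic, and whether introns were counted is not given in the sources used here, so levels were compared between groups of nuclei for 1 gene at a time and never between genes. Fabp5 has near-identical copies elsewhere in the genome, so its counts are uncertain.

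The promoters of 4 members are shown because each holds a searched motif and because these genes carry the split described next: Gpnmb defines it, and Hilpda, Plin2 and Pdpn were higher in Gpnmb-positive nuclei. Sequences are from RefSeq on GRCm38.p6, 5′ to 3′ on the strand of the gene, from 150 bases before to 30 after the annotated start. Capitals mark TGACTCA (a binding motif of AP-1 factors) in Gpnmb, ACGTG (the core of the hypoxia response element) in Hilpda, and CACGTG (the E-box that MiT/TFE and MYC family factors bind) in Plin2 and Pdpn.
Gpnmb: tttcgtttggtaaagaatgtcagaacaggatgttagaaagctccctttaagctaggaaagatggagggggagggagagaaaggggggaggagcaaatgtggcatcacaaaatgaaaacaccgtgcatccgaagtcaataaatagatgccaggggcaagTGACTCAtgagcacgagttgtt
Hilpda: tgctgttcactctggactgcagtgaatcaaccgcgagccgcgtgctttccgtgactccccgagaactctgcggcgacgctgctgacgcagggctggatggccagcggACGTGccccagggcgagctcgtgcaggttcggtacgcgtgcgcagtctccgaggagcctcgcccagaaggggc
Plin2: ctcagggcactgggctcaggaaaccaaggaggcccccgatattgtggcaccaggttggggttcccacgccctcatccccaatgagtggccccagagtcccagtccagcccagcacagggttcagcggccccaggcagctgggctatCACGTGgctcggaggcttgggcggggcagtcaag
Pdpn: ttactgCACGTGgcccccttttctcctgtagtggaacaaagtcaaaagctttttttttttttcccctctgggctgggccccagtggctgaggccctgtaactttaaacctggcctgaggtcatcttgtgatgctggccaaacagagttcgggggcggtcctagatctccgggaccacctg

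These stretches lie at chr6:49036368-49036547 (Gpnmb, plus strand), chr6:29272476-29272655 (Hilpda, plus strand, the downstream of 2 annotated starts), chr4:86670030-86670209 (Plin2, minus strand) and chr4:143299535-143299714 (Pdpn, minus strand). The motif begins at position 9 after the start in Gpnmb, and at positions -43, -4 and -144 in Hilpda, Plin2 and Pdpn. Promoter windows of 300 bases were found for 8 of the 10 members, not for Fabp5 and Lpl, and motifs were searched on both strands. TGACTCA was found in Gpnmb alone among the 8 and in 5.20% of all 32851 windows. ACGTG, which is contained in CACGTG, was found in 3 of the 8 (Hilpda, Pdpn and Plin2) and in 19.6% of all windows, and CACGTG in Pdpn and Plin2 and in 7.15% of all windows. CATGTG, a related E-box, was found in Cd9 and in 14.2% of all windows. A direct repeat of AGGTCA with 1 base between the copies, the element of PPAR and RXR dimers, was in no member's window and in 0.0396% of all windows. A match is a run of letters and was not tested as a site.

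Gpnmb, a transmembrane glycoprotein of lysosome-rich phagocytes, was read in few nuclei. Of the 1120 macrophage nuclei, 37 (3.30%, 2.34 to 4.53%) had any Gpnmb UMI, against 3 of 246 epithelial nuclei (1.22%, 0.252 to 3.52%), with median depths of 2977 and 4936 UMIs. After each nucleus was thinned to 1000 UMIs the shares were 1.94% of 1085 macrophage nuclei and 0 of 230 epithelial nuclei, with an upper bound of 1.59%. Nuclei with 2 or more Gpnmb UMIs are called Gpnmb-positive, those with 0 Gpnmb-negative, and the 18 macrophage nuclei with exactly 1 were kept apart. There were 27 Gpnmb-positive nuclei: 19 macrophage, 6 unplaced and 2 cytoplasm-rich. Of the 27, 25 were in well 2, so the split by Gpnmb is also nearly a split by well, and well 2 alone is given beside the pooled ratios. The 19 macrophage nuclei held 277 of the 295 macrophage Gpnmb UMIs, from 2 to 100 per nucleus with a median of 4.

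The Gpnmb-positive macrophage nuclei carried fewer macrophage markers than their neighbours. In well 2 the 11 markers summed to 2720 CPM (2384 to 3090) in the 17 positive nuclei and 6825 CPM (6665 to 6988) in the 303 negative ones, with 10 of the 11 detected in positive nuclei and Fcgr1, the gene behind the nuclear label, at 0 (up to 42.5 CPM) against 71.1 CPM. Per nucleus they ranged from 362 to 6211 CPM in the positive and from 465 to 17735 CPM in the negative nuclei. Cd68, a lysosomal marker within that list, went the other way, with 403 against 116 CPM. Markers of the resident-like state (F13a1, Mrc1, Lyve1 and 5 others) summed to 34.6 CPM against 3804 CPM. Epithelial markers were at 11.5 against 55.3 CPM, with 14 of 15 at 0 in the positive nuclei. T and NK cell, B cell, fibroblast and adipocyte markers were all at 0 there, each with an upper bound of 42.5 CPM. The negative nuclei held 8.89, 27.6, 39.5 and 1.97 CPM of these, below that bound, so no difference is shown. Monocyte markers stood at 34.6 against 1513 CPM, and immediate early and heat shock genes at 5636 against 3948 CPM. Endothelial markers were higher, at 138 CPM (71.5 to 242) against 34.6 CPM (24.1 to 48.1), with Vwf and Pecam1 leading and Cdh5, Flt1 and Tek at 0 in the positive nuclei. The 6 unplaced Gpnmb-positive nuclei carried 0 or 1 macrophage marker UMI each and 0 epithelial marker UMIs. The part of these marker differences in the ratios below was not tested.

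**Figure D1:**
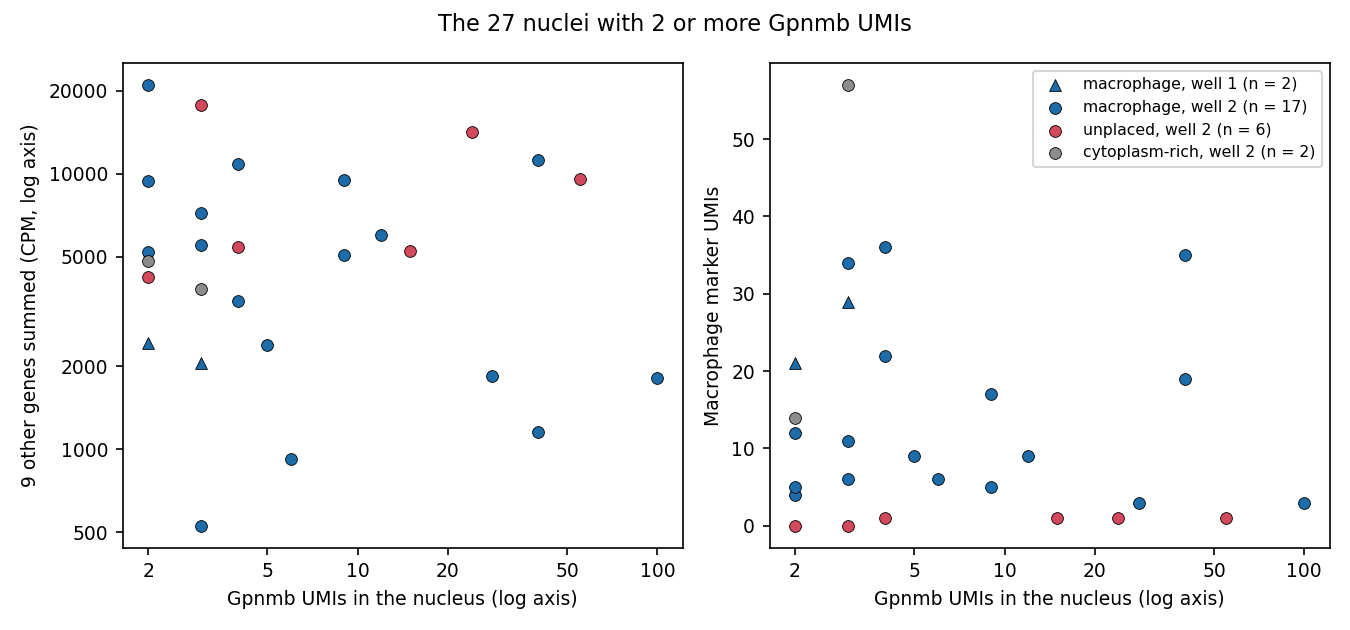
The 27 nuclei with 2 or more Gpnmb UMIs, 1 point per nucleus: Gpnmb UMIs (log axis) against the summed level of the 9 other genes in CPM (left, log axis) and against macrophage marker UMIs (right), by class and well. The 9 other genes range from 528 CPM to 20948 CPM, in no order with Gpnmb, and the 6 unplaced nuclei lie at 0 or 1 marker UMI.

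Without Gpnmb the programme was still higher in Gpnmb-positive macrophage nuclei. The 9 other members summed to 5004 CPM (4568 to 5471) in the 19 positive nuclei and 1094 CPM (1060 to 1129) in the 1083 negative nuclei, a ratio of 4.57 (4.15 to 5.03). In well 2 alone the levels were 5325 and 1453 CPM, a ratio of 3.67 (3.30 to 4.07). Well 1 held 2 positive nuclei, at 2210 CPM against 951 CPM, a ratio of 2.32 (1.45 to 3.53). Leaving out each of the 9 genes in turn gave ratios from 4.27 without Spp1 to 4.91 without Lgals3, and in well 2 from 3.35 to 4.15, so no single gene carried the sum. Leaving out resident-like nuclei, which make up most negative nuclei of well 2, brought the ratio in well 2 to 2.74 (2.44 to 3.07).

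Of the 9 members, 7 reached a ratio of 2 or more in both wells together and again in well 2, where 13.7% and 14.6% of the 10041 genes with at least 20 macrophage UMIs did. Among genes with at least 100 UMIs the shares were 9.93% and 10.9%. Lpl had a ratio of 0.5 or less, as did 31.2% and 34.8% of the 10041 genes. The median ratio over the 9 members was 5.27, and 4.47 in well 2, against 0.852 and 0.805 over all genes. In well 1, with 2 positive nuclei, 4 of the 9 reached 2, but Trem2 did so on 1 UMI and Plin2 on 4 UMIs, with intervals that span 1. The share over all genes was not computed for well 1, so this count cannot be judged against it.

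Hilpda, Pdpn and Fabp5 had the highest ratios among the 9, on 96, 100 and 69 UMIs over all macrophage nuclei. Hilpda blocks the lipase that empties lipid droplets, and its UMIs numbered 27 in the 19 positive nuclei and 43 in the 1083 negative ones, 279 against 12.1 CPM, a ratio of 23.0 (13.7 to 38.1) and 13.1 (7.29 to 23.8) in well 2. They lay in 6 of the 19 positive nuclei, with 11 of the 27 in 1 nucleus, and without that nucleus the ratio was 14.7 (7.71 to 26.6). Pdpn, a mucin-type glycoprotein, had 26 UMIs in 9 of the 19 nuclei, 269 against 18.9 CPM, a ratio of 14.2 (8.69 to 22.7) and 5.46 (3.14 to 9.25) in well 2. Fabp5, a cytosolic fatty acid carrier, had 15 UMIs in 10 of the 19 nuclei, 155 against 14.1 CPM, a ratio of 11.0 (5.74 to 19.9) and 10.3 (4.79 to 21.9) in well 2. For Pdpn the well 2 value was less than the pooled one by more than 1.5 times. Its negative nuclei stood at 46.4 CPM in well 2 and 7.89 CPM in well 1, and those of Hilpda at 23.7 and 7.49 CPM. Without resident-like nuclei the ratio in well 2 was 2.73 (1.54 to 4.74) for Pdpn and 6.71 (3.60 to 12.8) for Hilpda.

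Spp1, Plin2 and Lgals3 were also higher and were read in most of the positive nuclei. Spp1, the secreted glycoprotein osteopontin, stood at 837 CPM (665 to 1041) against 119 CPM (108 to 131), a ratio of 7.06 (5.50 to 8.97) and 6.31 (4.75 to 8.34) in well 2. It was read in 14 of the 19 positive nuclei, with 0 to 20 UMIs each. Plin2, which coats lipid droplets, stood at 1282 against 243 CPM, a ratio of 5.27 (4.33 to 6.37), and was read in 18 of the 19. In well 2 its ratio was 2.75 (2.24 to 3.36), and Gpnmb-negative nuclei there held 503 CPM against 139.6 CPM in well 1. Lgals3, the lectin galectin-3, stood at 1768 against 435 CPM, a ratio of 4.07 (3.45 to 4.77) and 4.47 (3.70 to 5.37) in well 2, where it was 2.65 (2.17 to 3.23) without resident-like nuclei. Lgals3 was read in all 19 positive nuclei, with 1 to 26 UMIs each and a median of 7, and in 46.8% of the negative nuclei.

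At 2 or more Gpnmb UMIs, Cd9, Trem2 and Lpl were not shown to go with Gpnmb. Cd9, a tetraspanin, had 29 UMIs in 8 of the 19 nuclei and a ratio of 2.55 (1.69 to 3.72), 2.87 (1.84 to 4.34) in well 2, but 18 of the 29 came from 1 nucleus. Without that nucleus its ratio was 1.03 (0.512 to 1.87), and without resident-like nuclei it was 1.47 (0.936 to 2.26) in well 2. Trem2 had 8 UMIs in 4 of the 19 nuclei, 5 of them in 1 nucleus, at 82.7 against 58.9 CPM. Its ratio was 1.40 (0.598 to 2.82) and 0.888 (0.347 to 1.90) in well 2, so a difference was not detectable at this depth. At 1 or more Gpnmb UMIs the pooled Trem2 ratio was 1.88 (1.11 to 3.01), whose interval lies above 1. In well 2, nuclei with exactly 1 Gpnmb UMI gave 1.71 (0.792 to 3.28). Lpl, the lipase that frees fatty acids from circulating triglyceride, had 3 UMIs in 3 nuclei, 31.0 against 76.4 CPM, a ratio of 0.406 (0.0832 to 1.2). In well 2 it had 2 UMIs against 98, a ratio of 0.238 (0.0284 to 0.884). Without resident-like nuclei it had 2 UMIs against 15 there, a ratio of 0.630 (0.0699 to 2.71), whose interval spans 1.

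**Figure D2:**
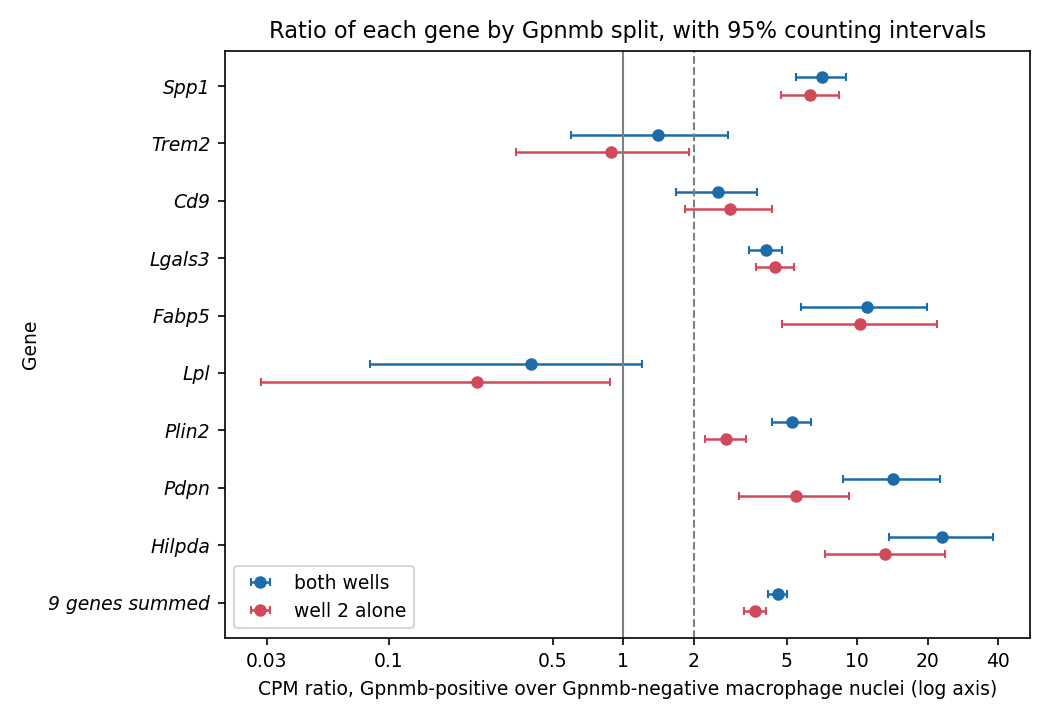
Ratio of CPM in Gpnmb-positive over Gpnmb-negative macrophage nuclei for the 9 other genes and their sum, in both wells (19 against 1083 nuclei) and in well 2 (17 against 303). Points are ratios on a log axis, bars are 95% counting intervals, and the lines stand at 1 and 2. Trem2 crosses 1 in both sets, and Hilpda has the highest ratio in both.

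None of the 9 was restricted to Gpnmb-positive nuclei. Those nuclei held 2.6% of all macrophage UMIs. They held 28.1% of the macrophage UMIs of Hilpda (19.4 to 38.2%), 26.0% of Pdpn (17.7 to 35.7%), 21.7% of Fabp5 (12.7 to 33.3%) and 15.2% of Spp1 (12.3 to 18.5%). The share was 11.6% for Plin2, 9.72% for Lgals3, 6.43% for Cd9, 3.51% for Trem2 and 1.06% for Lpl. In well 2, where the positive nuclei held 7.45% of UMIs, the shares reached 42.9% for Fabp5, 35.1% for Hilpda and 31.0% for Spp1. Most UMIs of every other member therefore lay in macrophage nuclei with 0 or 1 Gpnmb UMI. The 93.9% for Gpnmb follows from the split.

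Among nuclei with 2 or more Gpnmb UMIs the programme did not rise further with Gpnmb. In macrophage nuclei of well 2 the 9 other members stood at 1453 CPM in the 303 nuclei with 0 Gpnmb UMIs and 3055 CPM (2643 to 3512) in the 15 with 1. They stood at 6233 CPM (5476 to 7067) in the 9 nuclei with 2 to 5, 5860 CPM (4838 to 7034) in the 4 with 6 to 20, and 3679 CPM (3003 to 4462) in the 4 with 21 to 100. The top 4 nuclei ranged from 1156 to 11207 CPM each. The highest of them gave 69 of their 103 UMIs of the 9 others. The rest stood at 1156, 1808 and 1840.5 CPM, beside 1453 CPM in nuclei with 0 Gpnmb UMIs. With unplaced nuclei included, the levels were 6308 CPM (5575 to 7110) at 2 to 5 and 5046 CPM (4328 to 5849) at 21 to 100, and these intervals overlapped. The nucleus with 100 Gpnmb UMIs held 15 UMIs of the 9 others and 3 of macrophage markers, and 1 of 2 nuclei with 40 held 69 of the 9 others. Of the 26 Hilpda UMIs in nuclei with 1 Gpnmb UMI, 25 came from 1 nucleus.

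In the 6 unplaced Gpnmb-positive nuclei most UMIs of the programme were of Lgals3 and Plin2. Lgals3 numbered 65 UMIs in 5 of the 6, 4695 CPM, and Plin2 42 UMIs in 5 of the 6, 3034 CPM. Fabp5 had 3 UMIs, all in 1 nucleus, 217 CPM, a ratio of 12.9 (2.42 to 44.6) to Gpnmb-negative nuclei of well 2, and Pdpn had 2 UMIs, 144 CPM. Spp1, Trem2, Cd9 and Hilpda had 1 UMI each in these nuclei and Lpl 0. Counting unplaced nuclei as macrophage gave a ratio of 4.91 (4.50 to 5.35) for the 9 members, with 7 again at 2 or more.

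Across the other macrophage states, set from marker rates, the members were broad and unequal. States are mostly of 1 well: 225 of 249 inflammatory nuclei (Il1b, Cxcl2, Ccl3 and the like) were in well 1 and 170 of 198 resident-like nuclei in well 2, and 127 nuclei lay within 25% of the cut for the state called Mmp12 and TAM, set by Mmp12, Itgax, Mmp14 and Slc7a11. Outside the nuclei with Gpnmb UMIs, the 9 members summed to 762 CPM (715 to 812) in steady nuclei, which met no state's rule, and 1471 CPM (1385 to 1562) in inflammatory nuclei. Resident-like, immediate early, Mmp12 and TAM, and cycling nuclei lay between, at 1149, 1220, 1328 and 1034 CPM. In each of these states but the resident-like one the sum was higher in well 2 than in well 1, for instance 2712 against 1345 CPM in inflammatory and 1474 against 636 CPM in steady nuclei.

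Among the states without Gpnmb UMIs, Lgals3 and Cd9 both had their highest levels in inflammatory and in Mmp12 and TAM nuclei and their lowest in resident-like nuclei. Lgals3 stood at 729 CPM (668 to 794) in inflammatory and 669 CPM (588 to 759) in Mmp12 and TAM nuclei, which do not differ beyond their intervals, and at 250.9 CPM (214 to 292) in resident-like nuclei. Cd9 stood at 188 CPM (158 to 223) and 192 CPM (149.7 to 243) in the first pair and 46.0 CPM (31.3 to 65.3) in resident-like nuclei. The low level in resident-like nuclei was that of well 2, with 221 CPM for Lgals3 and 41.5 CPM for Cd9; the 28 resident-like nuclei of well 1 held 509 and 84.8 CPM.

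Lpl and Trem2 were spread differently. Lpl stood at 156 CPM (127 to 189) in resident-like and 121 CPM (87.7 to 162) in Mmp12 and TAM nuclei, against 49.2 CPM (37.8 to 63.1) in steady nuclei. All 44 Lpl UMIs of the Mmp12 and TAM state came from well 1. Trem2 stood at 27.5 CPM (16.8 to 42.5) in inflammatory nuclei, its lowest level, and between 52.4 CPM (steady) and 87.6 CPM (resident-like) in the other states without Gpnmb UMIs. Its level also differed by well, with 46.1 CPM in Gpnmb-negative nuclei of well 1 and 90.8 CPM in those of well 2. Leaving out resident-like nuclei gave 90.3 CPM in well 2, so they were not higher in Trem2 there. Pooled over wells, Spp1 hardly varied in the states without Gpnmb UMIs, from 107 CPM (76.1 to 146) to 137 CPM (93.9 to 194), and all its intervals overlapped. In well 2, however, Gpnmb-negative nuclei held 146 CPM of Spp1, and 203 CPM with resident-like nuclei left out, so resident-like nuclei stood lower in that well. Plin2 ran from 113 CPM (95 to 133) in steady to 454 CPM (405 to 508) in resident-like nuclei, but in well 2 the resident-like level of 481 CPM lay below 804 CPM in immediate early and 726 CPM in inflammatory nuclei. Pdpn, Fabp5 and Hilpda stayed at or below 34.4 CPM in these states, except for Pdpn at 81.5 CPM in cycling nuclei, where 18 of 19 UMIs came from 1 nucleus.

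**Figure D3:**
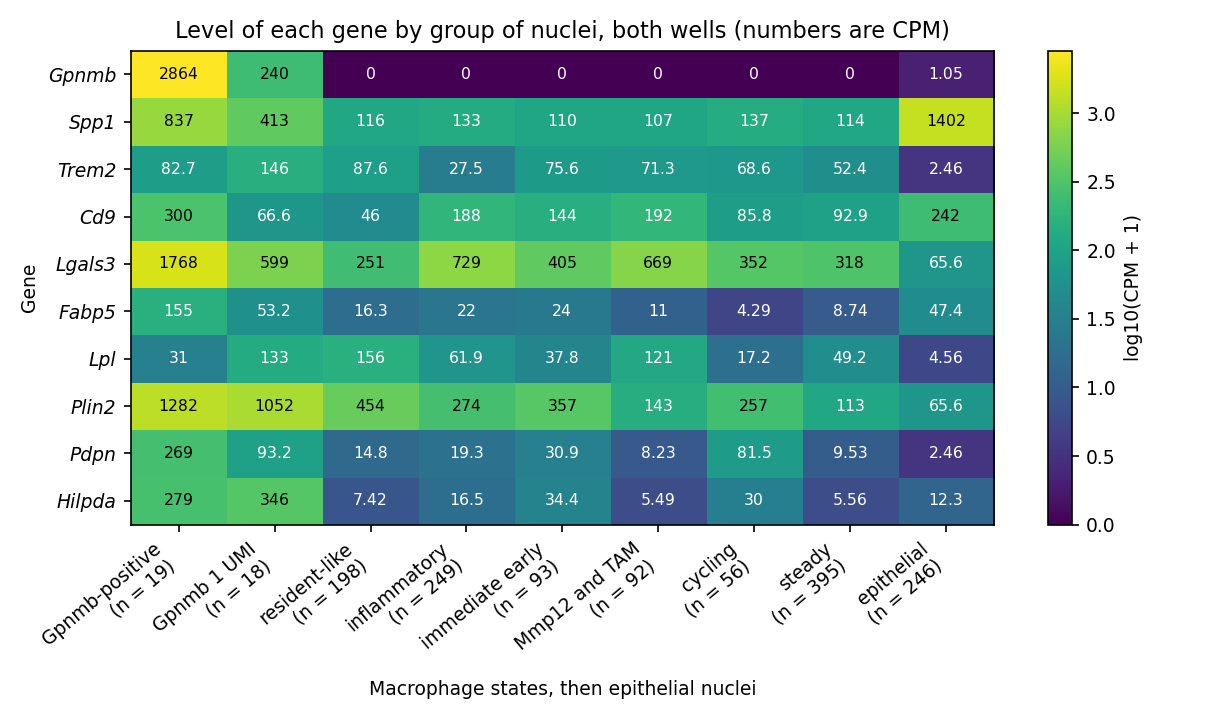
Level of each of the 10 genes in 8 macrophage states and in epithelial nuclei, both wells, as CPM printed in each cell and coloured by log10(CPM + 1). Gpnmb is 0 in 6 states by the split, Spp1 is 1402 CPM in epithelial nuclei, and Lgals3 and Plin2 are above 100 CPM in every macrophage state.

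Which of the 10 genes also mark tumour epithelium was read from the 246 epithelial nuclei. Pooled, 3 genes were higher there: Spp1 at 1402 CPM against 143 CPM in macrophage nuclei, 9.79-fold (8.94 to 10.7), Fabp5 at 47.4 against 18.5 CPM, 2.55-fold (1.90 to 3.47), and Cd9 at 242 against 121 CPM, 2.0-fold (1.77 to 2.26). Of 10042 genes, 16.1% were at least 2-fold higher in epithelial nuclei and 20.3% stood at 0.5 or less. The Spp1 UMIs lay in 118 of the 246 nuclei, with 650 of 3996 in 1 nucleus, and all but 2 came from well 1. In the 18 epithelial nuclei of well 2 Spp1 stood at 18.9 CPM against 222 CPM in macrophage nuclei, so its direction turned with the well. The mean over nuclei of each nucleus's CPM weights nuclei equally, and by it the macrophage over epithelial ratio was 0.209 for Spp1 and 0.732 for Fabp5, against 0.102 and 0.391 for the summed counts. In nuclei thinned to 1000 UMIs it was 0.187 (0.15 to 0.23) for Spp1 and 0.530 (0.224 to 1.39) for Fabp5, whose interval spans 1. Fabp5 kept its direction in well 2, 2.52-fold (1.01 to 5.52), and Cd9 gave 1.38-fold (0.807 to 2.23) there.

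The other 7 genes were lower in epithelial nuclei. The epithelial level was 0.0133 times the macrophage level for Gpnmb (3 UMIs), 0.0401 for Trem2 (7 UMIs), 0.0598 for Lpl (13 UMIs) and 0.0914 for Pdpn (7 UMIs). Lgals3 gave 0.139 (0.119 to 0.161) and Plin2 0.229 (0.195 to 0.268), and both were read in more than a few epithelial nuclei, 66 and 84 of 246. Within wells the gap was smaller for some: Plin2 gave 0.414 (0.34 to 0.50) in well 1 and 0.421 (0.276 to 0.618) in well 2. Pdpn gave 0.233 (0.0779 to 0.585) in well 1 and 0.145 (0.00362 to 0.832) in well 2, on 6 and 1 epithelial UMIs. Gpnmb gave 0.116 in well 1 and 0.0768 in well 2, on 1 and 2 epithelial UMIs. Macrophage marker RNA was also present there at 382 CPM, and its part in these levels was not tested. Hilpda gave 0.476 (0.314 to 0.708) pooled, but in well 1 it was 1.62-fold higher in epithelial nuclei (0.894 to 3.01).

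For the sum of all 10 genes the direction depended on Spp1 and on the well. The sum was 1312 CPM in macrophage and 1846 CPM in epithelial nuclei, a ratio of 0.711 (0.683 to 0.739). Without Spp1 it was 2.63 (2.47 to 2.80), in well 1 it was 0.510 (0.486 to 0.535) and in well 2 2.97 (2.35 to 3.79).

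**Figure D4:**
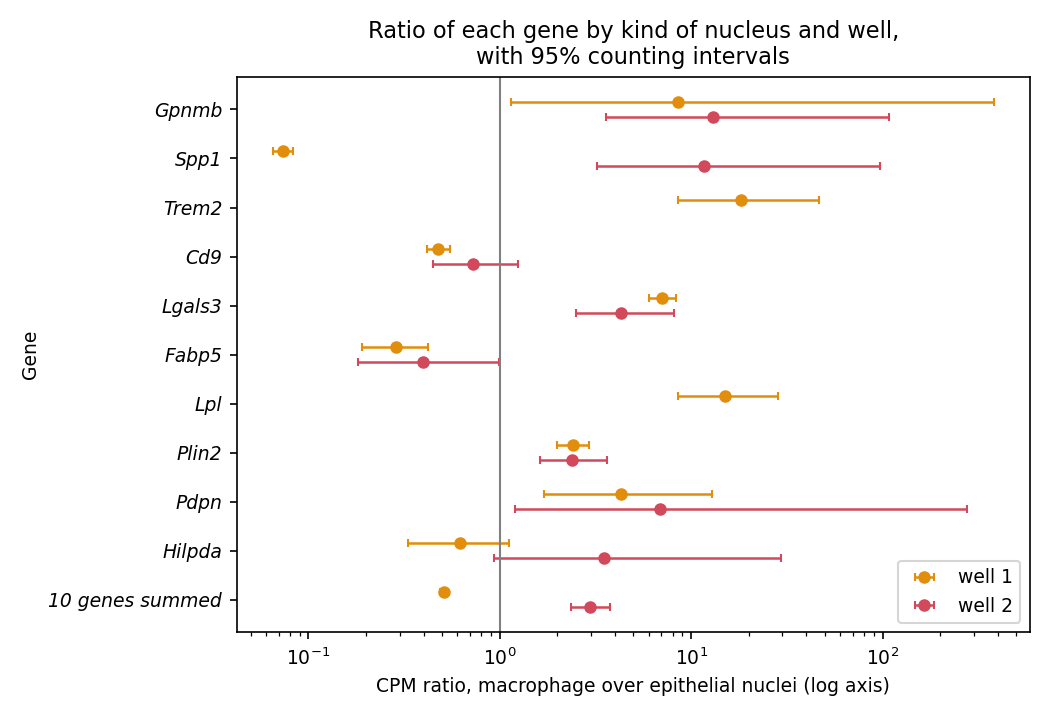
Ratio of CPM in macrophage over epithelial nuclei for the 10 genes and their sum, in well 1 (785 against 228 nuclei) and well 2 (335 against 18), on a log axis with 95% counting intervals. Genes with 0 UMIs in epithelial nuclei of a well have no point. Spp1 lies at 0.0739 in well 1 and 11.7 in well 2.

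Pairs of members were compared by splitting macrophage nuclei of well 2 by each gene in turn, 2 or more UMIs against 0. Nuclei with 2 or more Plin2 UMIs (111 nuclei) held 15.7 times the Hilpda level (5.84 to 59.2) and 2.42 times the Lgals3 level (1.99 to 2.97) of those without. Of the 66 Hilpda UMIs in these 111 nuclei, 11 came from 1 Gpnmb-positive nucleus. The nucleus that held nearly all Hilpda UMIs of the group with 1 Gpnmb UMI is also among them, so the Hilpda ratio rests largely on few nuclei. The 43 nuclei split off by Spp1 held 7.18 times the Pdpn level (4.33 to 12.0), 3.52 times the Cd9 level (2.45 to 5.02) and 1.05 times the Lpl level (0.585 to 1.80). Of their 56 Cd9 UMIs, 18 came from 1 nucleus. The Gpnmb-positive nuclei are among those counted. In well 1 the 72 nuclei split off by Plin2 held 2.24 times the Lgals3 level (1.93 to 2.6) and 5.69 times the Hilpda level (1.95 to 16.0), while the 47 split off by Spp1 held 1.04 times the Lgals3 level (0.822 to 1.30). Nuclei with Trem2 or Lpl gave mostly lower levels of the others in well 2. The 19 nuclei with 2 or more Trem2 UMIs held 0.241 times the Gpnmb level (0.0960 to 0.504) and 0.562 times the Lgals3 level (0.377 to 0.808), but 1.46 times the Spp1 level (0.965 to 2.14), and the nuclei split off by Spp1 held 1.81 times the Trem2 level (1.12 to 2.85). Of the 257 Gpnmb UMIs in nuclei with 0 Trem2 UMIs, 208 came from 4 nuclei, so the Gpnmb ratio rests largely on few nuclei. The 18 nuclei split off by Lpl held 0 Pdpn, Hilpda and Fabp5 UMIs. The ratio intervals reach 0.699 for Pdpn, 0.652 for Hilpda and 1.60 for Fabp5, so a difference is not shown for Fabp5. Trem2 and Lpl went with each other in well 1, where nuclei with 2 or more Trem2 UMIs (12 nuclei) held 5.12 times the Lpl level (2.99 to 8.32), and not in well 2, where they held 0.236 times (0.0281 to 0.884). Over the 326 macrophage nuclei of well 2 thinned to 1000 UMIs, which share 1 library, Pearson r between members ran from -0.13 (Trem2 with Plin2) to 0.368 (Gpnmb with Fabp5), with 0.204 for Plin2 with Hilpda, 0.162 for Lgals3 with Plin2, 0.0373 for Trem2 with Lgals3 and 0.0139 for Trem2 with Lpl. A split by detection also selects deeper nuclei, and the part of depth was not tested.

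**Figure D5:**
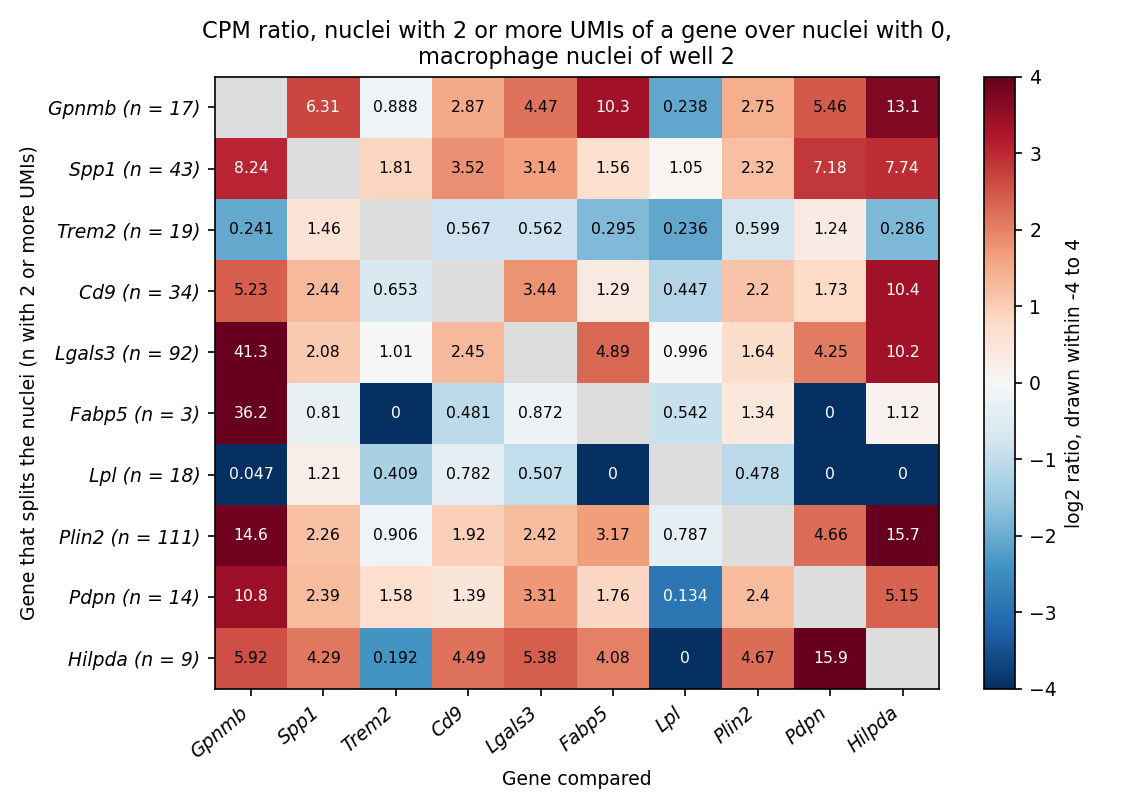
Ratio of the CPM of the gene in each column between macrophage nuclei of well 2 with 2 or more UMIs of the row's gene (n in the row label) and those with 0, printed in each cell and coloured on a log2 scale drawn within -4 to 4. Rows of Trem2 and Lpl are mostly below 1, and rows of Fabp5 (3 nuclei) and Hilpda (9 nuclei) rest on few nuclei.

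Other genes of the pathway were read in the same split of macrophage nuclei. Of 26 further lipid-associated macrophage genes, 25 were matched and 23 had enough UMIs. Of those, 10 reached a ratio of 2 or more and 4 a ratio of 0.5 or less (8 and 4 in well 2), with a median of 1.96 (1.46 in well 2). Among the 10041 genes, 13.7% reached 2 and 31.2% stood at 0.5 or less (14.6% and 34.8% in well 2). Among the 6 of highest macrophage level, Ctsd, a lysosomal protease, stood at 1747 against 340 CPM, a ratio of 5.13 (4.34 to 6.03) that was 2.69 (2.24 to 3.22) in well 2. Ctsb gave 2.15 (1.90 to 2.44), and 1.65 in well 2. Apoe, the lipid carrier, gave 1.02 (0.875 to 1.18), but 0.699 (0.593 to 0.819) in well 2. The cholesterol exporter Abca1 gave 1.30 (1.06 to 1.59), and 1.17 (0.921 to 1.47) in well 2. Nceh1 and Ctsz gave 1.96 and 1.98, and 2.93 and 2.11 in well 2. Named after its values were seen, Atp6v0d2, a subunit of the lysosomal proton pump, had 22 UMIs in 5 of the 19 positive nuclei, 12 of them in 1, against 3 UMIs in all the negative nuclei, and each of these UMIs was in well 2. Named in the same way, Cd36, a scavenger receptor, went the other way with 4 UMIs, all in 1 nucleus, a ratio of 0.211 (0.0572 to 0.542), and 0.212 in well 2.

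Other lipid droplet genes were mixed. Of 11 measured, 2 reached 2 or more and 4 stood at 0.5 or less (1 and 4 in well 2), with a median of 0.606 (0.648 in well 2). Over all genes 13.7% reached 2 and 31.2% stood at 0.5 or less, and the pooled counts of this list lie near those shares. Soat1, which esterifies cholesterol, gave 1.78 (1.32 to 2.35), and 1.70 in well 2. The fatty acid ligase Acsl1 gave 0.308 (0.133 to 0.609), and 0.537 (0.228 to 1.08) in well 2. Dgat1, the enzyme of triglyceride synthesis, had 0 UMIs against 127, with an interval up to 1.08. Of 9 PPAR and LXR genes, 1 reached 2 or more and 1 stood at 0.5 or less (1 and 2 in well 2). Scd2 gave 3.27, and 2.33 (0.794 to 5.70) in well 2. Scd1 had 0 against 455 UMIs, but 2 of the 455 were in well 2, so nearly all came from the well with 2 positive nuclei. Pparg gave 1.07 (0.566 to 1.85), and 1.45 in well 2. Of 4 MiT/TFE genes 0 reached 2, and Mitf gave 0.953 (0.723 to 1.23), but 0.706 (0.534 to 0.919) in well 2. Of 8 hypoxia genes 3 reached 2 and 0 stood at 0.5 or less (3 and 0 in well 2), with a median of 1.43, and 1.04 in well 2. P4ha1 and Hif1a, the 2 of highest macrophage level, gave 0.767 (0.406 to 1.32) and 1.45 (0.849 to 2.31). In well 2 they gave 1.05 and 1.03. Pdk1 had 2 UMIs in positive nuclei and gave 0.569 (0.0682 to 2.10). Vegfa gave 3.69 (2.02 to 6.29), and 3.13 in well 2, with 10 of its 15 UMIs in 1 nucleus. Slc2a1 gave 2.94 (1.53 to 5.18), and 2.69 in well 2. Ndrg1 gave 4.38 (1.82 to 9.14), but 2.08 (0.845 to 4.45) in well 2. Of 11 receptors and partners of the members 1 reached 2 and 4 stood at 0.5 or less (1 and 3 in well 2). Cd44, a receptor of osteopontin, gave 2.12 (1.69 to 2.62), and 2.49 in well 2, with 44 of 89 UMIs in 1 nucleus. The integrin genes Itgav, Itga9 and Itgb1 gave 0.679 (0.488 to 0.921), 0.406 (0.254 to 0.617) and 0.854 (0.550 to 1.27). In well 2 they gave 0.969, 0.709 and 0.592. Syk gave 1.51 (1.16 to 1.93) and Lrp1 1.29 (0.964 to 1.70), and 1.21 and 0.831 in well 2. Tyrobp, the signalling partner of Trem2, named after its values were seen, gave 0.764 (0.393 to 1.35), and 0.765 in well 2.

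The 6 genes with the highest ratio and at least 30 UMIs in positive nuclei mostly rested on few nuclei. Tmem267 had 61 of its 78 UMIs in 1 nucleus, Colec12 all 59, Gm39469 40 of 44 and Gm15726 27 of 41. Syngr1 had 50 UMIs in 9 of the 19 nuclei, a ratio of 23.5 (16.2 to 34.0), and 13.9 (9.04 to 21.5) in well 2. Fbxo32 had 63 UMIs in 10 of them, a ratio of 20.3 (14.7 to 27.8), and 20.1 in well 2. The genes whose level over the 8 states was most like that of the 9 summed members were Naa50 (Pearson r of 0.994), Por (0.980), Tatdn2 (0.975), Atp6v1d (0.973), Lasp1 (0.971) and Eea1 (0.959), chosen among 5775 genes. With 8 states of shared libraries these values are a description. The r of Gpnmb is set by the split and those of the other members by their place in the sum, so they are not given.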

How the data were processed

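The authors deposited 1 matrix of UMI counts per gene and barcode, processed with Cell Ranger 5.0 on mm10 per the submitters' processing notes (5.0.1 per the file headers). Whether introns were counted is not given in the sources used here. Nuclei with under 500 UMIs, under 300 genes or over 5% mitochondrial UMIs were removed (21 barcodes), as were 5 doublets called by Scrublet per well in scanpy 1.11.5 (0 in well 1, a low yield), and 3 copies of shared barcodes that passed these filters. Nuclei were macrophage or epithelial with at least 3 marker UMIs of that kind and at least 2 times those of the other kind, and cytoplasm-rich with 3% or more ribosomal protein UMIs. States were set by UMI minimums and rates of marker lists. CPM are summed UMIs of a gene per 1000000 UMIs of the group. Intervals are Poisson (levels), conditional binomial (ratios) and Clopper-Pearson (shares), at 95%. UMIs count molecules, but nuclei are not replicates, and with 1 pooled sample no test was made. Ratios need at least 20 macrophage UMIs. The ratio and interval code was tested on simulated counts. Python 3.11.15, numpy 2.4.6, scipy 1.17.1 and igraph 0.11.9 were used.

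The members and lists were chosen with earlier results of these data known. The class and state cuts, including the ribosomal one, were set after the member counts of barcodes with Gpnmb UMIs and a first view of member levels had been seen, and both 3% and 5% ribosomal cuts were looked at. Named genes were the members, up to 6 per list by macrophage level, the 6 highest ratios with at least 30 UMIs, and the 6 genes most correlated over states on log2(CPM + 10) with at least 100 UMIs. Atp6v0d2, Cd36 and Tyrobp were named outside this rule. Alternatives are given in the closing section.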

Additional observations from a re-analysis of the deposited data

How the results depend on the processing

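No paired analysis was possible because each genotype has 1 sample and neither well could be mapped to a genotype. The ratio of the 9 members without Gpnmb stayed above 1 in all 23 alternatives, from 2.32 to 5.29. It was 3.73 with 1 or more Gpnmb UMIs, 5.29 in nuclei thinned to 1000 UMIs, 5.13 as a mean over nuclei of their CPM, 2.32 in well 1 and 3.67 in well 2. The count of members at 2 or more was 4 in well 1 and 6 or 7 in the other alternatives; with other backgrounds of genes, 14.6% (at least 1 UMI) and 9.93% (at least 100 UMIs, added after seeing the data) of genes reached it. The ratio of the 10 members in macrophage over epithelial nuclei was 0.711 and was above 1 in 4 alternatives: 1.0 in thinned nuclei, where its interval (0.884 to 1.14) spans 1, 1.03 as a mean over nuclei, 2.97 in well 2 and 2.63 without Spp1 (the last added after seeing the data). It moved without turning to 0.510 in well 1, 0.780 with clusters made without the members, 0.645 with a marker minimum of 6 UMIs and 0.668 without Gpnmb, and, in alternatives added after seeing the data, to 0.743 with unplaced nuclei as macrophage, 0.790 without the epithelial nucleus holding most UMIs and 0.743 with no ribosomal cut. Hilpda turned in well 1, at 0.618 macrophage over epithelial. The ratio of Trem2 in Gpnmb-positive over negative nuclei, whose interval spans 1, went from 1.40 to 0.888 in well 2 and 0.566 without its top nucleus. It was higher in other alternatives, up to 1.88 (1.11 to 3.01) with 1 or more Gpnmb UMIs, whose interval lies above 1. Apart from the turn of Hilpda in well 1, alternative values of single genes, those of Hilpda and Trem2 included, were compared with the reported interval. They lay within it in 190 cases and outside it in 32. Alternative ratios with under 3 UMIs in a group were left out of these counts and ranges, though some are printed with the results above. The cause of each change was not tested. Depth limits Trem2, Lpl, Fabp5, Pdpn and Hilpda most, whose positive nuclei hold 3 to 27 UMIs.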

Other observations

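The 291 cytoplasm-rich nuclei, which enter no comparison, had a median of 706 UMIs and carried both macrophage (2477 CPM) and epithelial (4887 CPM) markers. In them Spp1 stood at 797 CPM, Cd9 at 395 CPM, Lgals3 at 320 CPM and Fabp5 at 97.1 CPM. Of their 30 Pdpn UMIs, 23 came from 1 nucleus. The 2 cytoplasm-rich nuclei with 2 or more Gpnmb UMIs held 17 and 3 UMIs of the 9 other members.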
